A study of Mus musculus with 12 samples.

Results

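The genes described here are those of the MCM helicase and of replication licensing: Mcm2, Mcm3, Mcm4, Mcm5, Mcm6, Mcm7, Mcm10, Cdc6, Cdt1 and Gmnn. They are a list of named genes, set with earlier results of these data known, and all 10 are among the 55487 genes of the deposited table. The libraries hold poly-A RNA of splenic B cells, labelled naive, kept with F(ab')2 anti-IgM at 10 µg/mL. This antibody fragment binds and crosslinks surface IgM, the antigen receptor of these cells. The 4 groups of 3 biological replicates are Fcmr KO cells at 6 h, WT cells at 6 h, Fcmr KO cells at 1 h and WT cells at 1 h. Fcmr encodes the Fc receptor for IgM. Every group received anti-IgM, and no culture without it was analysed here. The labels give neither the design of the KO allele nor the age or strain of the mice, and they do not say whether each replicate is a separate animal, so a p-value measures the spread between these libraries.

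Before a cell can copy its DNA, the origin recognition complex, Cdc6 and Cdt1 load the ring formed by Mcm2, Mcm3, Mcm4, Mcm5, Mcm6 and Mcm7 onto replication origins, the step known as licensing. Geminin, the product of Gmnn, binds Cdt1 and prevents a second round of loading, and Mcm10 acts later, when the loaded ring becomes a moving helicase. Resting lymphocytes are out of the cell cycle and must build this machinery when an antigen receptor calls them into it. Transcription of many of these genes in mammalian cells is controlled by E2F factors.

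The upstream regions of Mcm6, Mcm5 and Mcm2 are shown because Mcm6 was the subunit that differed between genotypes, Mcm5 was the subunit with the next highest mean level at 6 h, and Mcm2 had no match to the searched E2F words. They are the 250 bases before the RefSeq start of each gene in build GRCm38.p6, at chr1:128359706-128359955 on the minus strand for Mcm6, chr8:75109259-75109508 on the plus strand for Mcm5 and chr6:88898781-88899030 on the minus strand for Mcm2. Capitals mark matches to the words TTTGGCGC, TTTCGCGC, TTTCCCGC and TTTGCCGC on either strand.
Mcm6: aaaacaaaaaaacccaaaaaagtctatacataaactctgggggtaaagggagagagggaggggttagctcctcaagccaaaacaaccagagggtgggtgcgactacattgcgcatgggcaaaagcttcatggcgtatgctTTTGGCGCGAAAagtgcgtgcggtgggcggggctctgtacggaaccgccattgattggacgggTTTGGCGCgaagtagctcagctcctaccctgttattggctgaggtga
Mcm5: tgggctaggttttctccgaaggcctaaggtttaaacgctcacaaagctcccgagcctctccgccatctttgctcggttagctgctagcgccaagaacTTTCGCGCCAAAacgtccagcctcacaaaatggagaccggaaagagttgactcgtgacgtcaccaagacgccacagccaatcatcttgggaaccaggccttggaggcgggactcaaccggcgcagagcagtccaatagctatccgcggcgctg
Mcm2: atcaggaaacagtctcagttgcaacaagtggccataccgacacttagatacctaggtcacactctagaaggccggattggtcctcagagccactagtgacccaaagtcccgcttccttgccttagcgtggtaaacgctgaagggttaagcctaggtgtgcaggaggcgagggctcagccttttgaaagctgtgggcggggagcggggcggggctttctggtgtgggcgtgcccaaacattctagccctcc
The region of Mcm6 held 3 matches, of which 2 overlap on opposite strands at bases -110 to -99 and the other lies at -47 to -40, counted back from the base just before the start. The region of Mcm5 held 2 matches, which overlap each other at bases -153 to -142.

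RefSeq windows of 250 bases before to 50 bases after the start were matched for 8 of the 10 genes, with 2 windows for Mcm7 and none for Mcm4 or Gmnn. An E2F word was found in 6 of these 8 genes, namely Mcm3, Mcm5, Mcm6, Mcm7, Cdc6 and Cdt1, against 2.26% of all 32851 mouse windows of the same length. The word CCAAT was found in 6 of the 8 genes against 37.4% of all windows, and the GC box GGGCGG in 6 of the 8 against 35.7%. A gene counted if any of its windows matched, while the shares count single windows. Lower-case letters in the source, if any, were matched in the 8 genes only. A match describes the letters of the window and is not a measurement of binding.

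The libraries held 19260751 to 24058818 fragments, and all 10 genes passed the filter of a mean of at least 1 FPKM (fragments per kilobase of transcript, scaled to library size), as did 11841 genes in all. The lowest of the 10 genes still rested on 44 fragments in a library, while Mcm6 rested on 1340 to 4335. Fcmr itself was listed at 42.6 to 46.4 FPKM in KO cells and 368 to 401 FPKM in WT cells at 6 h, and at 48.9 to 50.1 FPKM in KO cells and 352 to 388 FPKM in WT cells at 1 h. The 10 B cell markers were all detected, summing to at least 3023 FPKM in each library, but RNA of other cells was also present, and its level differed between libraries. At 1 h the summed neutrophil markers were 77.7, 28.5 and 40.8 FPKM in KO replicates 1 to 3 against 918, 468 and 63.5 FPKM in WT replicates 1 to 3. The summed erythroid markers were 1437, 547 and 868 FPKM in the KO libraries against 2159, 2065 and 580 FPKM in the WT libraries. WT replicate 3 thus lay among or near the KO libraries for both lists. Mcm6 is therefore also given without both WT libraries numbered 3. Values at 1 h without WT replicate 3 are given for Gmnn, Cdc6, Mcm10 and the other ring subunits.

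**Figure D1:**
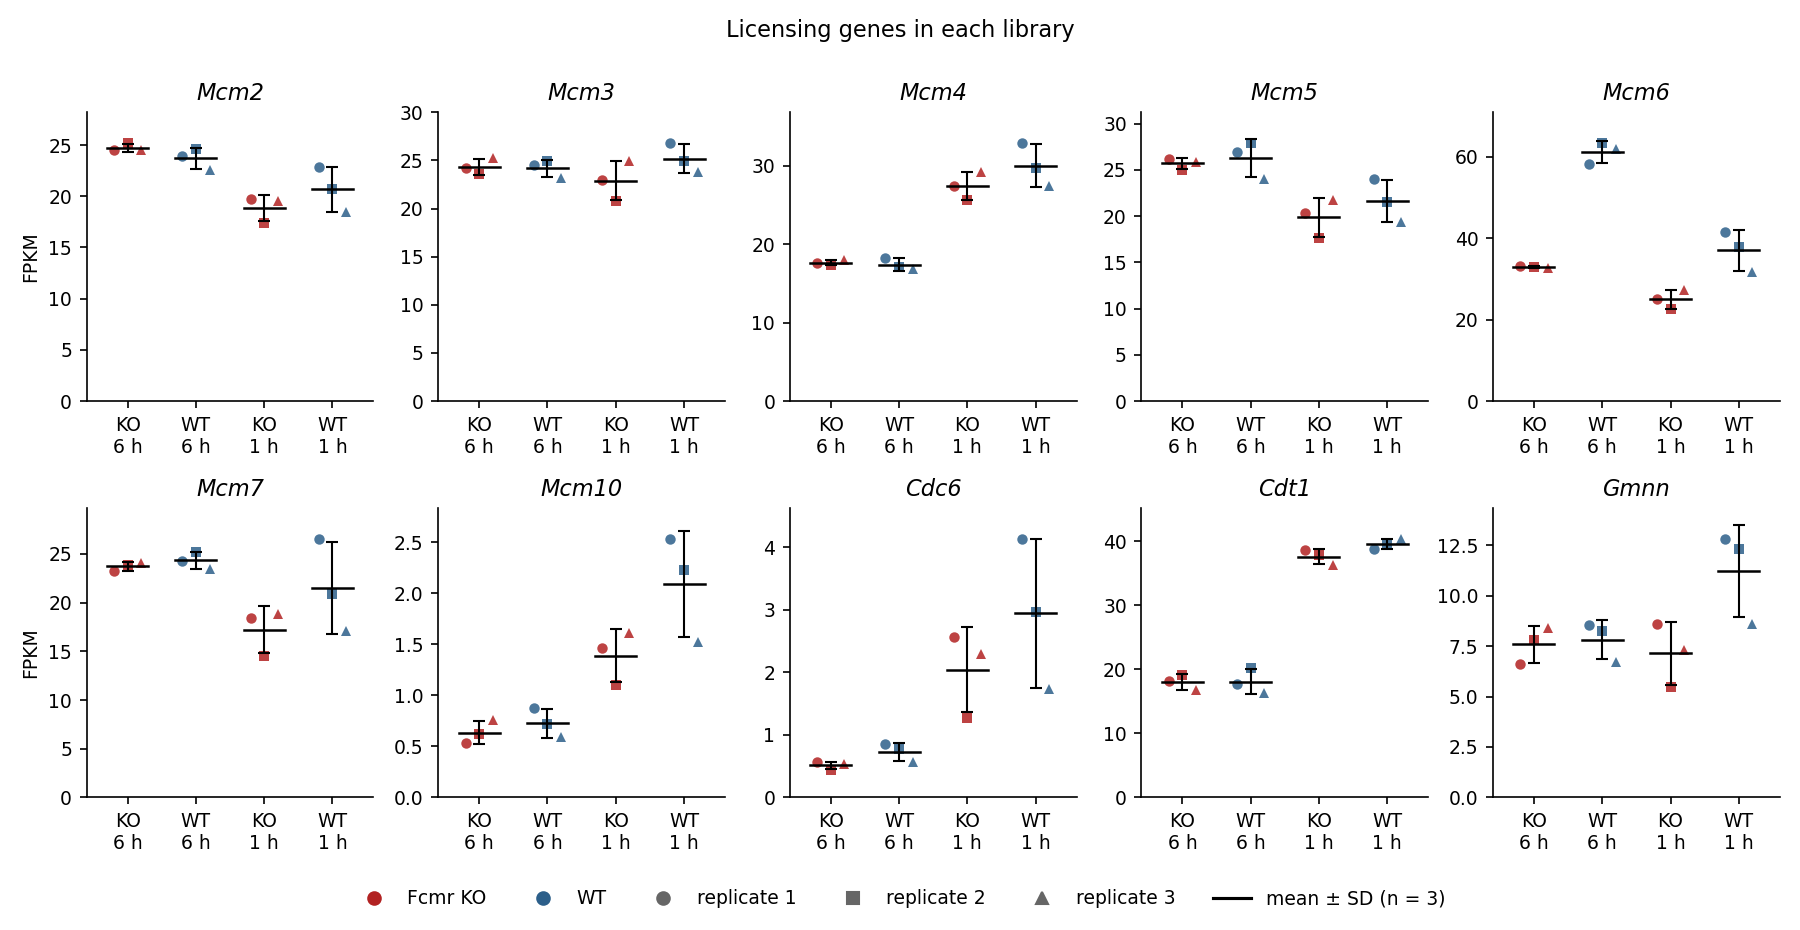
FPKM of each of the 10 licensing genes, a panel for each gene, with points for libraries and lines for the mean and SD of each group (n = 3); KO and WT stand side by side at each time, and each panel has its own vertical scale. Mcm6 is the gene whose KO libraries (32.7 to 33.1 FPKM at 6 h) lie far below the WT libraries (58.2 to 63.4 FPKM), whereas Cdt1, Cdc6, Mcm10 and Mcm4 separate by time.

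Mcm6, a subunit of the helicase ring, was the gene of the 10 that differed between genotypes past the threshold, and it did so at both times. At 6 h it had 33.1, 33.0 and 32.7 FPKM in KO cells against 58.2, 63.4 and 62.0 FPKM in WT cells. At 1 h it had 25.0, 22.7 and 27.4 FPKM in KO cells against 41.6, 37.9 and 31.7 FPKM in WT cells. The genotypes did not overlap at either time, and the KO mean was 53.8% of the WT mean at 6 h and 67.6% at 1 h. In bulk RNA, fewer cells that express a gene and less RNA per cell cannot be told apart.

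At 6 h, Mcm6 was lower in KO cells by a log2 fold change of -0.87 (SE 0.09, 95% interval -1.07 to -0.67) on the log2(FPKM + 1) scale, with a limma adjusted p of 0.00301. This was 1 of the 10 genes called, in a comparison in which 0.228% of all genes tested were called (adjusted p under 0.05) and 0.0929% were called lower. The call held in all 23 alternative settings, with values from -0.91 to -0.85. Mcm6 gave -0.86 without both WT libraries numbered 3.

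At 1 h, Mcm6 was lower in KO cells by a log2 fold change of -0.54 (SE 0.09, 95% interval -0.74 to -0.34), with a limma adjusted p of 0.0254. It was again 1 of 10 called, where 0.524% of all genes were called and 0.439% were called lower. This call was less firm. It was lost when WT replicate 1 or WT replicate 2 at 1 h was left out (limma adjusted p of 0.0818 and 0.116), without KO replicate 1 or KO replicate 2 at 1 h (limma adjusted p of 0.106 and 0.0984), without KO replicate 1 at 6 h (limma adjusted p of 0.0529) and when only the groups compared entered the limma fit (adjusted p of 0.2). A replicate block by number across genotypes also ended the call (limma adjusted p = 0.0638). The size stayed between -0.65 and -0.46 throughout, and without both WT libraries numbered 3 it was -0.65, with a limma adjusted p of 0.00792.

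The other subunits of the ring gave nearly equal levels in both genotypes at 6 h. Mean FPKM ± SD (n = 3 each) was 24.7 ± 0.388 in KO cells and 23.7 ± 0.981 in WT cells for Mcm2, 24.3 ± 0.839 in KO cells and 24.2 ± 0.86 in WT cells for Mcm3, and 25.7 ± 0.598 in KO cells and 26.3 ± 2.04 in WT cells for Mcm5. For Mcm4 it was 17.7 ± 0.32 in KO cells and 17.4 ± 0.756 in WT cells, and for Mcm7 it was 23.7 ± 0.444 in KO cells and 24.4 ± 0.838 in WT cells. Their log2 fold changes ran from -0.04 to 0.06, and the 95% intervals, the widest being that of Mcm7 at -0.33 to 0.26, all lie above the upper bound of -0.67 for Mcm6. Mcm7 overlaps Cops6 and Ap4m1 on the opposite strand, and because the strand setting of the counting is not given in the sources used here, fragments of the overlapping parts cannot be told apart.

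At 1 h the same 5 subunits had lower means in KO cells, with log2 fold changes of -0.12 for Mcm2, -0.13 for Mcm3, -0.12 for Mcm4, -0.12 for Mcm5 and -0.29 for Mcm7. None was called (limma adjusted p of 0.456 to 0.667), and the genotypes overlapped for each. Mcm4, for example, had 27.4, 25.7 and 29.2 FPKM in KO cells against 32.9, 29.7 and 27.4 FPKM in WT cells. Without WT replicate 3 at 1 h, the log2 fold changes were -0.2 for Mcm2, -0.17 for Mcm3 and -0.18 for Mcm4. They were -0.19 for Mcm5 and -0.44 for Mcm7. None of the 5 was called there, but each limma adjusted p was lower than with all libraries.

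**Figure D2:**
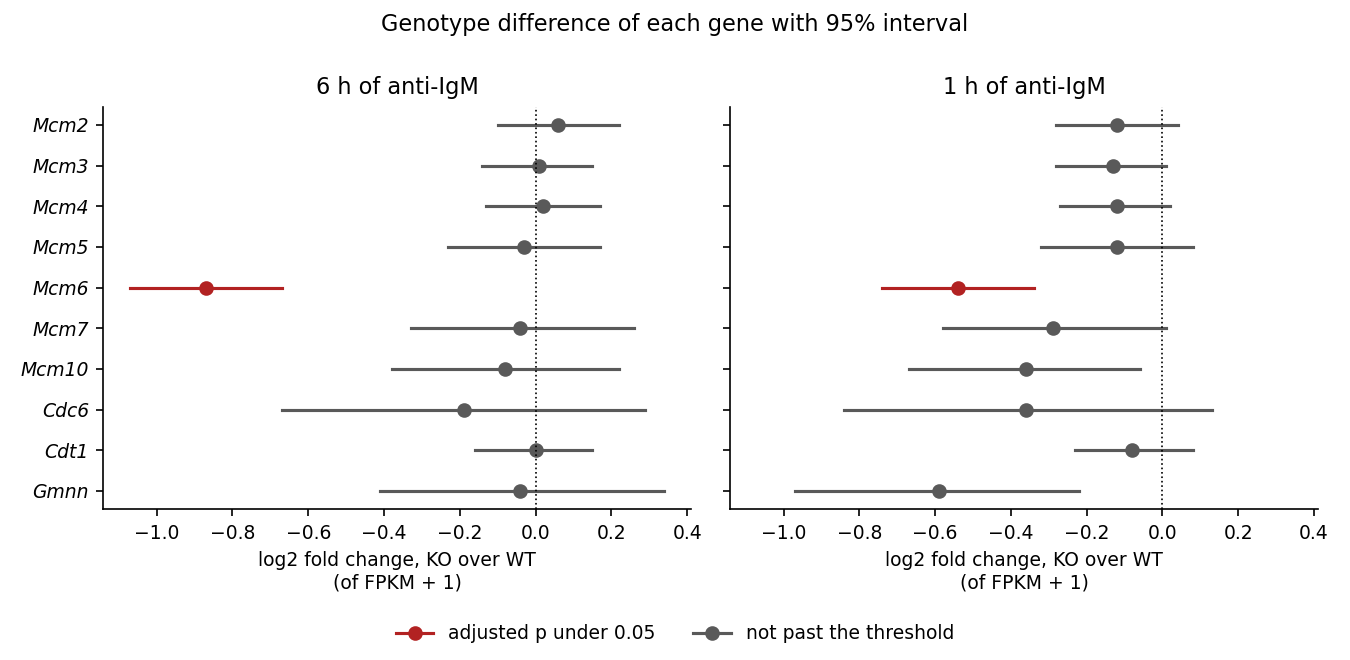
For each licensing gene, the log2 fold change of KO over WT on the log2(FPKM + 1) scale at 6 h and at 1 h, with 95% intervals from limma and n = 3 libraries in each group. At 6 h the point of Mcm6 stands at -0.87 while the other 9 lie between -0.19 and 0.06. At 1 h all 10 points are below 0 and Gmnn and Mcm6 are lowest. This scale understates the change of low genes. On recovered fragments with voom, Cdc6 gave -0.48 and Mcm10 -0.19 at 6 h. At 1 h voom gave -0.66 for Gmnn, -0.57 for Mcm10, -0.56 for Mcm6 and -0.5 for Cdc6.

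The subunits of the ring assemble in equal numbers, and Mcm6 was known from earlier results of these data to be lower in KO cells. Mcm6 was therefore set against the geometric mean of the other 5 in the same library, as a description. This ratio is not affected by the scaling of a library. At 6 h the ratio was 1.44, 1.45 and 1.4 in KO cells against 2.49, 2.68 and 2.84 in WT cells. At 1 h it was 1.16, 1.21 and 1.22 in KO cells against 1.57, 1.63 and 1.52 in WT cells. Every KO library lay below every WT library of the same time, WT replicate 3 included.

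On the log2 scale the ratio averaged 0.52 ± 0.03 in KO cells and 1.41 ± 0.09 in WT cells at 6 h (mean ± SD, n = 3 each), a difference of -0.9. At 1 h it averaged 0.26 ± 0.04 in KO cells and 0.65 ± 0.05 in WT cells (SD, n = 3 each), a difference of -0.4. Each comparison gave a two-sided exact permutation p of 0.1, which is the smallest that 3 libraries against 3 allow. Since Mcm6 was picked by its difference in these same libraries, this p is not separate support for that difference. With Mcm7 alone as the denominator the difference at 1 h was -0.26.

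**Figure D3:**
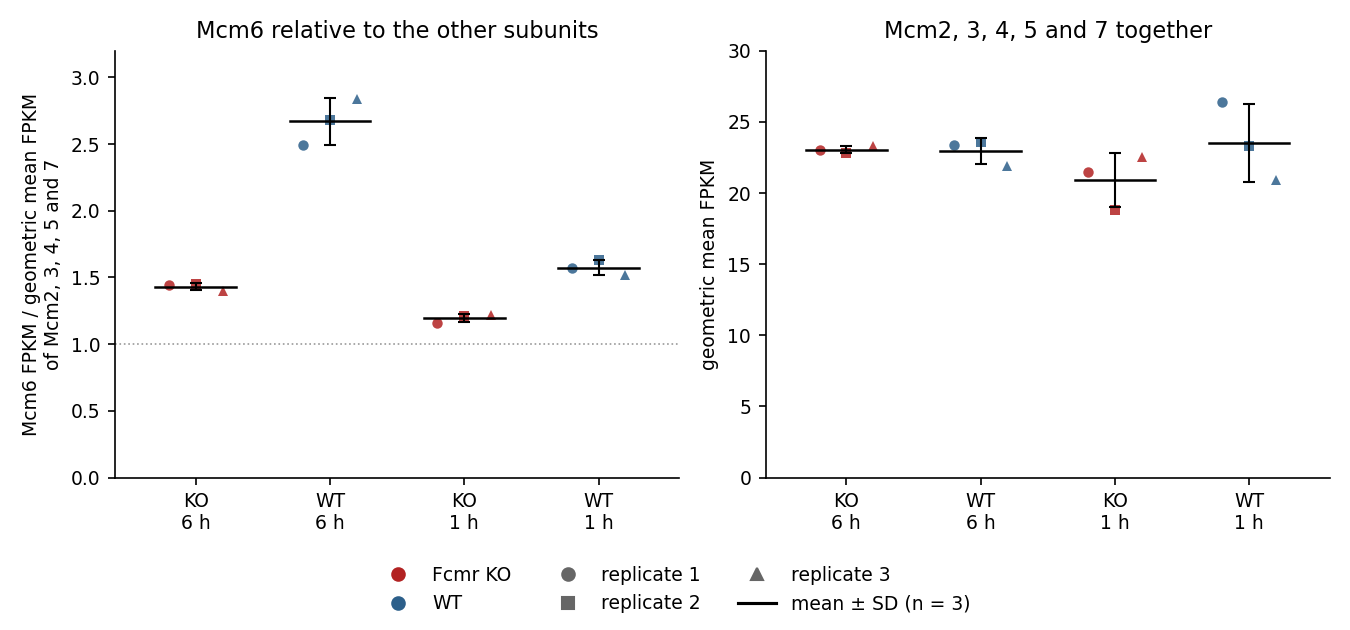
Mcm6 FPKM divided by the geometric mean of Mcm2, Mcm3, Mcm4, Mcm5 and Mcm7 in each library (left) and that geometric mean in FPKM (right), with points for libraries and lines for the mean and SD of each group (n = 3). The ratio is 1.4 to 1.45 in KO cells and 2.49 to 2.84 in WT cells at 6 h, and 1.16 to 1.22 in KO cells and 1.52 to 1.63 in WT cells at 1 h.

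Among the loading factors, Cdt1 and Cdc6, and the loading inhibitor Gmnn, no genotype difference passed the threshold. Gmnn had the lowest fold change of the 10 genes at 1 h. It was listed at 8.61, 5.49 and 7.32 FPKM in KO cells against 12.8, 12.3 and 8.62 FPKM in WT cells, so the groups did not overlap, but KO replicate 1 and WT replicate 3 were nearly equal. The log2 fold change was -0.59 (SE 0.17, limma adjusted p = 0.186). Without WT replicate 3 at 1 h it was -0.76. Gmnn was still not called there, but its limma adjusted p was lower than with all libraries. At 6 h Gmnn had 6.6, 7.82 and 8.4 FPKM in KO cells against 8.54, 8.25 and 6.7 FPKM in WT cells, and the groups overlapped.

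Cdt1 at 1 h had 38.6, 37.8 and 36.3 FPKM in KO cells against 38.8, 39.8 and 40.3 FPKM in WT cells, without overlap and with a difference of -0.08 on the log2 scale and a limma adjusted p of 0.742. Cdc6 at 1 h had 2.56, 1.27 and 2.29 FPKM in KO cells against 4.13, 2.96 and 1.74 FPKM in WT cells, with a limma adjusted p of 0.594. Its WT replicate 3 lay inside the KO range. The log2 fold change was -0.36, and leaving out a library gave -0.59 to -0.14, with -0.59 without WT replicate 3 at 1 h (limma adjusted p = 0.158). At 6 h Cdc6 had 0.559, 0.44 and 0.532 FPKM in KO cells against 0.849, 0.768 and 0.569 FPKM in WT cells. The groups were separated by a margin smaller than the spread within either genotype (log2 fold change -0.19, limma adjusted p = 0.852). The KO mean of Cdc6 was 70.0% of the WT mean at 6 h and 69.3% at 1 h. On recovered fragments with voom its log2 fold changes were -0.48 and -0.5.

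Mcm10, the factor that acts on the loaded helicase, had 1.46, 1.1 and 1.61 FPKM in KO cells against 2.53, 2.23 and 1.52 FPKM in WT cells at 1 h (log2 fold change -0.36, limma adjusted p = 0.324). WT replicate 3 again lay inside the KO range. Without it the log2 fold change at 1 h was -0.51. Mcm10 was still not called there, but its limma adjusted p was lower than with all libraries. At 6 h Mcm10 averaged 0.634 ± 0.114 FPKM in KO cells and 0.728 ± 0.142 FPKM in WT cells (mean ± SD, n = 3 each), with overlapping groups. The KO mean of Mcm10 was 87.1% of the WT mean at 6 h and 66.3% at 1 h. On recovered fragments with voom its log2 fold changes were -0.19 and -0.57.

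Over the 10 genes, the median log2 fold change of KO over WT was -0.03 at 6 h, with 7 below 0, beside a median of all genes of 0.002. At 1 h it was -0.21, with 10 of 10 below 0, beside a median of all genes of -0.011 and 54.6% of all genes below 0. Groups that did not overlap, with KO lower, were seen for Mcm6 and Cdc6 at 6 h, where 6.97% of all genes were so, and for Mcm6, Gmnn and Cdt1 at 1 h, where 8.59% of all genes were so.

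Genes of mitosis, which mark cycling cells, were also compared. The 15 genes of the G2 and mitosis list summed to 93.3, 64.1 and 102 FPKM in KO cells against 153, 137 and 77.4 FPKM in WT cells at 1 h, and the 10 licensing genes summed to 185, 164 and 189 FPKM in KO cells against 233, 213 and 190 FPKM in WT cells. All 15 mitosis genes had negative fold changes, with a median of -0.2 at 6 h and -0.39 at 1 h, and 0 of 15 were called by limma or by voom at either time, with 0 at an unadjusted p under 0.05 at 6 h and 1 at 1 h. WT replicate 3 was the lowest WT library in both sums. At 6 h the mitosis sums overlapped, at 44.0, 38.6 and 60.1 FPKM in KO cells against 65.9, 60.7 and 46.6 FPKM in WT cells. The part of cycling cells, or of neutrophil and erythroid RNA, in the values of the licensing genes at either time was not tested.

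At 1 h, some markers of macrophages and of marginal zone B cells were also called lower in KO cells, where 0.439% of all genes were called lower. The 16 macrophage markers summed to 306, 243 and 302 FPKM in KO cells against 467, 518 and 388 FPKM in WT cells at 1 h, and 7 of the 15 tested were called lower by limma. At 6 h they summed to 104, 69.9 and 109 FPKM in KO cells against 182, 178 and 101 FPKM in WT cells, with overlap. At that time 1 of the 15 was called lower, where 0.0929% of all genes were, and 11 had an unadjusted p under 0.05. The median log2 fold change of the macrophage markers at 6 h was -0.43, with 14 below 0 and 1 above. The 12 marginal zone markers summed to 408 to 461 FPKM in KO cells and 489 to 525 FPKM in WT cells at 6 h, and to 551 to 614 FPKM in KO cells and 709 to 793 FPKM in WT cells at 1 h, where 4 of the 11 tested were called lower. At 6 h, 0 of these 11 were called by limma and 1 by voom, with 3 at an unadjusted p under 0.05, and their median log2 fold change was -0.03, with 8 below 0 and 3 above. Plac8 made up much of the sum at 6 h, with a mean of 256 FPKM in KO cells and 317 FPKM in WT cells, and Cd1d1 was on the other side, at 6.45 FPKM in KO cells and 5.53 FPKM in WT cells. None of the markers of any cell type was at 0 in all libraries, and their part in the level of Mcm6 was not tested.

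Mcm6 lies on chromosome 1, on the minus strand at chr1:128331590-128359664 in mm10, 2.51 Mb from Fcmr, the targeted gene, at chr1:130865669-130880791. Mcm3 is on the same chromosome but 110.0 Mb away, and the other 8 genes are on other chromosomes. Within 1 Mb of Mcm6, 11 other genes were tested. The nearest tested genes on either side were not called at either time. At 6 h Dars, an aminoacyl-tRNA synthetase gene, averaged 124 ± 4.7 FPKM in KO cells and 123 ± 3.16 FPKM in WT cells (mean ± SD, n = 3 each). Ubxn4, on the other side, averaged at that time 33.8 ± 0.186 FPKM in KO cells and 35.7 ± 1.07 FPKM in WT cells (mean ± SD, n = 3 each).

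Cxcr4, the chemokine receptor gene, also lies within 1 Mb of Mcm6 and differed in the opposite direction. It averaged 292 ± 4.4 FPKM in KO cells and 172 ± 15.6 FPKM in WT cells at 6 h (log2 difference 0.76), and 869 ± 43.1 FPKM in KO cells and 502 ± 24.3 FPKM in WT cells at 1 h (log2 difference 0.79), with limma adjusted p of 0.000801 and 0.000265. Map3k19, a kinase gene, averaged 0.0832 ± 0.0427 FPKM in KO cells and 6.28 ± 0.684 FPKM in WT cells at 1 h and was called lower there (log2 fold change -2.74). Tmem163 was lower in every KO library at both times without being called (log2 fold changes of -0.47 at 6 h and -0.44 at 1 h, limma adjusted p of 0.165 and 0.127). The other neighbours, Mgat5, Ccnt2, Rab3gap1, Zranb3, Rpl28-ps1 and R3hdm1, were not called at either time.

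A wider window around Fcmr held a higher share of called genes than the rest of the genome. Of 61 tested genes within 5 Mb of Fcmr, with Fcmr and Mcm6 left out, 6 were called at 6 h (9.84%) and 9 at 1 h (14.8%). Of the 11778 genes farther away, 0.161% were called at 6 h and 0.433% at 1 h. The called genes of the window ran in both directions, 4 higher and 2 lower at 6 h, and 2 higher and 7 lower at 1 h. Whether the position of Mcm6 near the targeted gene has a part in its lower level was not tested.

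**Figure D4:**
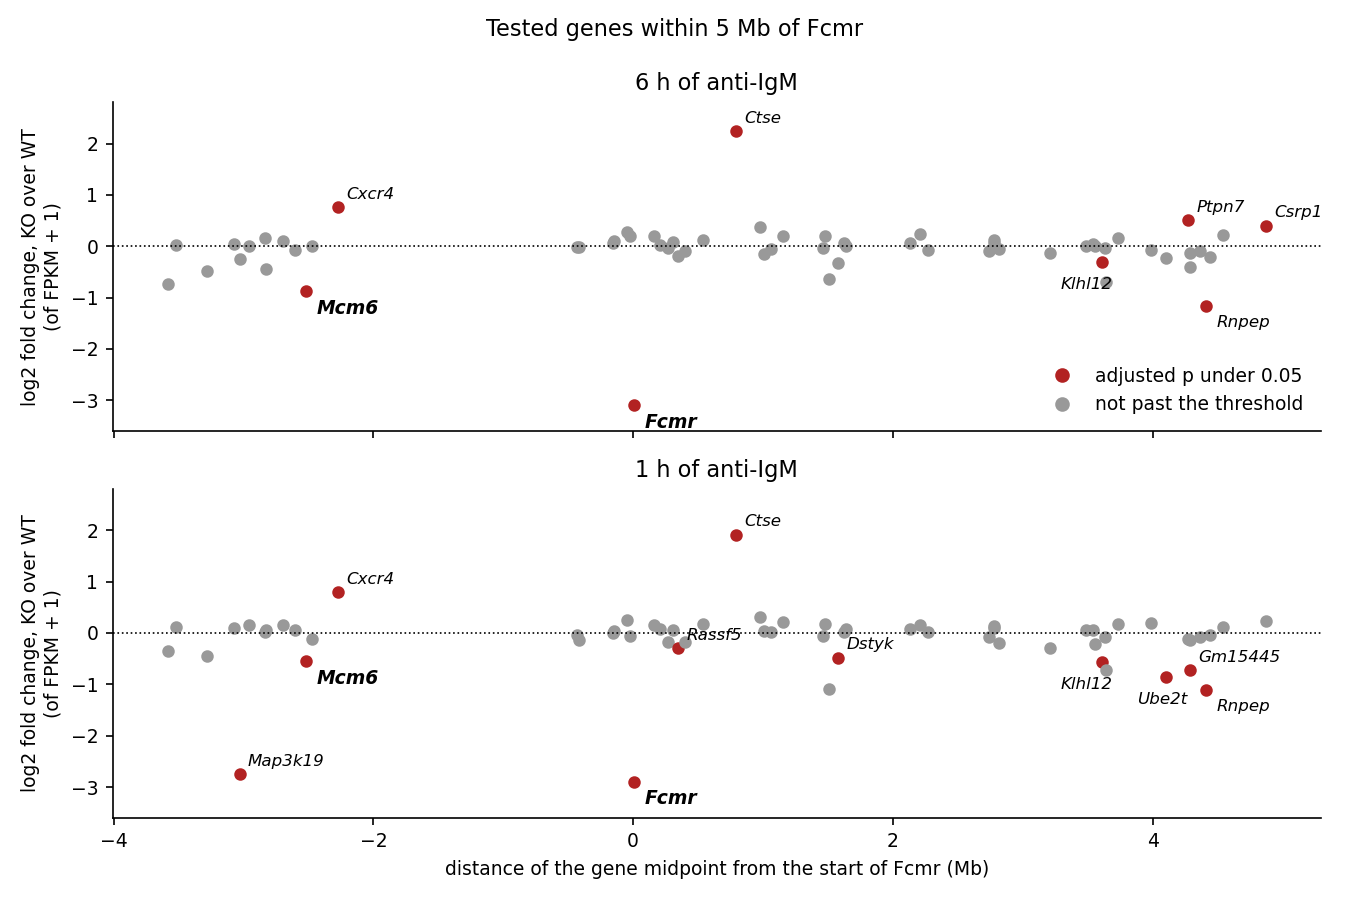
Log2 fold change of KO over WT on the log2(FPKM + 1) scale for the tested genes within 5 Mb of Fcmr, against the distance of each gene's midpoint from the start of Fcmr in Mb, at 6 h and at 1 h. Genes past the threshold are coloured and named; Mcm6 is at -0.87 and -0.54, with Cxcr4 at 0.76 and 0.79 beside it.

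The genes whose pattern over the 12 libraries was most like that of Mcm6, after the mean of each time was removed, were Ide, Rnpep, Fgfbp3, Fcmr and Brix1, with Pearson r of 0.954, 0.953, 0.946, 0.944 and 0.93. The 12 points share 2 genotypes and fall apart by them, and the values describe these libraries only. The other ring subunits were less like Mcm6, with r of 0.239 for Mcm2, 0.433 for Mcm3, 0.373 for Mcm4, 0.473 for Mcm5 and 0.543 for Mcm7. The mean of those 5 subunits was most like Uhrf1, Mthfd2, Fbxo5, Nsl1 and AI506816, with r of 0.946 to 0.955, against 0.455 for Mcm6. Ide, which encodes an insulin-degrading protease, lies on chromosome 19 and had 80.2, 77.1 and 74.3 FPKM in KO cells against 134, 138 and 144 FPKM in WT cells at 6 h. Fgfbp3 also lies on chromosome 19, and Rnpep lies on chromosome 1 within 5 Mb of Fcmr.

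Between 1 h and 6 h the licensing genes moved in both directions. The loading factors Cdt1 and Cdc6 fell in both genotypes, as did Mcm4 and Mcm10, while Mcm2, Mcm5 and Mcm6 were called higher in both on the FPKM as deposited. Of the 10 genes, 8 were called in KO cells, 4 higher and 4 lower at 6 h, and 8 were called in WT cells, 3 higher and 5 lower. These shares are near the background, since 78.5% of all genes tested were called in KO cells and 78.7% in WT cells. The fold change of the median gene was 0.218 in KO cells and 0.212 in WT cells on that scale, so each comparison of times was also made after rescaling to median-of-ratios size factors. Among all genes in KO cells, 50.6% were called higher and 27.9% lower as deposited, and 38.9% higher and 38.3% lower after rescaling. In WT cells 49.5% were called higher and 29.2% lower as deposited, and 38.7% higher and 39.1% lower after rescaling. After rescaling, 0 licensing genes were called higher and 5 lower in KO cells, and 1 higher and 6 lower in WT cells.

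Cdt1, which brings the ring to the origin, fell in both genotypes. It had 18.2, 19.1 and 16.7 FPKM at 6 h against 38.6, 37.8 and 36.3 FPKM at 1 h in KO cells, and 17.7, 20.2 and 16.3 FPKM at 6 h against 38.8, 39.8 and 40.3 FPKM at 1 h in WT cells. Each 6 h library lay below each 1 h library. The log2 fold changes were -1.02 in KO cells and -1.1 in WT cells (SE 0.07 each, limma adjusted p of 1.46e-07 and 8.26e-08), and -1.29 and -1.35 after rescaling.

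Cdc6, the loading ATPase, fell to a low level. It averaged 0.51 ± 0.0619 FPKM at 6 h and 2.04 ± 0.678 FPKM at 1 h in KO cells (SD, n = 3 each), so that the 6 h mean was 25.0% of the 1 h mean, and 0.728 ± 0.144 FPKM at 6 h and 2.95 ± 1.19 FPKM at 1 h in WT cells (SD, n = 3 each), or 24.7%. On the log2(FPKM + 1) scale, which understates the change of low genes, the fold changes were -0.98 in KO cells and -1.15 in WT cells (limma adjusted p of 0.00157 and 0.00053). On recovered fragments with voom they were -1.94 and -1.96.

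Mcm10 likewise fell, to 45.7% of its 1 h mean in KO cells and 34.8% in WT cells, with log2 fold changes of -0.54 and -0.83 (limma adjusted p of 0.00353 and 0.000181). Gmnn averaged 7.61 ± 0.915 FPKM at 6 h and 7.14 ± 1.57 FPKM at 1 h in KO cells (SD, n = 3 each) and was not called there (log2 fold change 0.09). In WT cells it averaged 7.83 ± 0.988 FPKM at 6 h and 11.3 ± 2.31 FPKM at 1 h (SD, n = 3 each) and was called lower, with a log2 fold change of -0.46 and a limma adjusted p of 0.0277. That call was lost without WT replicate 1 or 2 at 1 h (limma adjusted p of 0.101 and 0.0914) and without WT replicate 3 at 6 h (limma adjusted p of 0.0992), and with no filter on low values (limma adjusted p of 0.0597).

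The ratio of Cdt1 to its inhibitor Gmnn was 2.75, 2.45 and 1.99 at 6 h against 4.49, 6.89 and 4.96 at 1 h in KO cells. In WT cells it was 2.08, 2.44 and 2.44 at 6 h against 3.02, 3.23 and 4.67 at 1 h. All 6 h libraries were below all 1 h libraries of the same genotype.

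Within the ring, the subunits did not keep step. Mcm4 had 17.6, 17.4 and 18.0 FPKM at 6 h against 27.4, 25.7 and 29.2 FPKM at 1 h in KO cells, and 18.3, 17.1 and 16.8 FPKM at 6 h against 32.9, 29.7 and 27.4 FPKM at 1 h in WT cells. It fell by 0.61 in KO cells and by 0.75 in WT cells on the log2 scale (limma adjusted p of 6.71e-06 and 1.14e-06), and by 0.87 and 1.0 after rescaling. The ratio of Mcm4 to Mcm2 in a library was 0.689 to 0.764 over the 6 h libraries and 1.39 to 1.5 over the 1 h libraries of both genotypes.

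Mcm2, Mcm5 and Mcm7 were called higher at 6 h in KO cells, with log2 fold changes of 0.37, 0.36 and 0.45 (limma adjusted p of 0.000589, 0.00323 and 0.00979). After rescaling they gave 0.11, 0.09 and 0.18 and were not called. In WT cells Mcm2 and Mcm5 were called, at 0.19 and 0.27 (limma adjusted p of 0.0306 and 0.017), and Mcm7 at 0.19 was not. Of 23 alternative settings, 8 ended the call of Mcm2 in WT cells and 3 that of Mcm5. After rescaling none of the 3 was called in WT cells, and Mcm2 and Mcm7 turned to -0.06. Mcm3 was not called as deposited (0.09 in KO cells, -0.05 in WT cells) but was called lower after rescaling, at -0.18 in KO cells and -0.3 in WT cells (limma adjusted p of 0.0236 and 0.00111).

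Mcm6 rose at 6 h in both genotypes as deposited, to 131% of its 1 h mean in KO cells and to 165% in WT cells, with log2 fold changes of 0.39 in KO cells and 0.72 in WT cells (SE 0.09 each, limma adjusted p of 0.00229 and 2.12e-05). After rescaling it gave 0.12 in KO cells, which was not called, and 0.46 in WT cells, which was (limma adjusted p of 0.245 and 0.000537). Mcm6 was the gene of the 10 called higher after rescaling in WT cells, and none of the 10 was in KO cells.

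**Figure D5:**
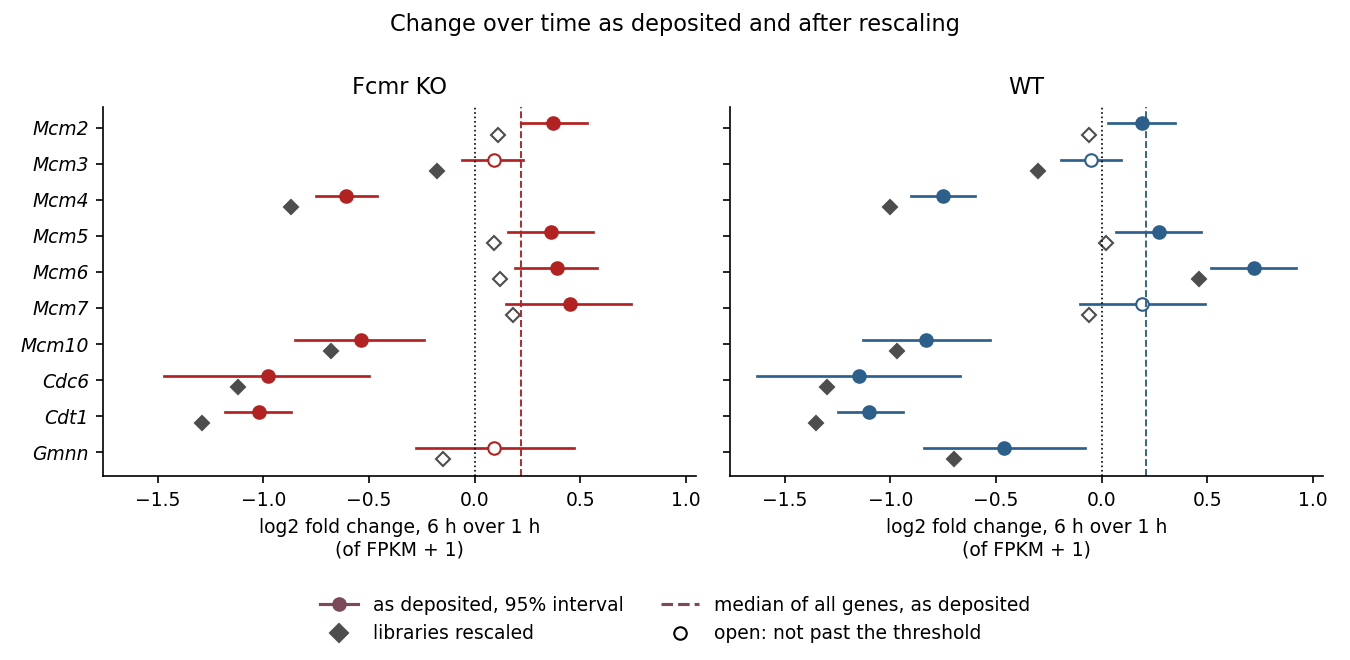
Log2 fold change of 6 h over 1 h on the log2(FPKM + 1) scale for each licensing gene in KO and WT cells. Circles are the values as deposited, with 95% intervals from limma (n = 3 libraries in each group), diamonds are the values after rescaling, filled symbols are called, and the dashed line is the median of all genes as deposited. Cdt1, Cdc6, Mcm10 and Mcm4 lie below 0 in both genotypes, and after rescaling Mcm6 in WT cells, at 0.46, is the gene called higher.

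The difference of the change over time between the genotypes was tested itself. For Mcm6 it was -0.33 (SE 0.13, unadjusted p = 0.0257, limma adjusted p = 0.9999), and for Gmnn 0.56 (SE 0.24, unadjusted p = 0.0426, limma adjusted p = 0.9999). Thus 0 of the 10 genes were called by limma, with 2 at an unadjusted p under 0.05 and 0 called by voom, where 0.0253% of all genes were called. The log2 ratio of Mcm6 to the other ring subunits grew by 0.31, 0.26 and 0.2 in the KO pairs of libraries with the same number, against 0.66, 0.72 and 0.9 in the WT pairs. This comparison, chosen after the values were seen, gave a difference of -0.5 with a two-sided exact permutation p of 0.1, the smallest it allows.

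As a level, in FPKM, Mcm6 ranked highest of the 10 genes at 6 h in both genotypes, above Mcm5 without overlap between libraries. Mcm5, Mcm2, Mcm3 and Mcm7 came next, at means of 23.7 to 25.7 FPKM in KO cells and 23.7 to 26.3 FPKM in WT cells, and neighbours among these 4 overlapped. Cdt1 and Mcm4 followed at 17.4 to 18.1 FPKM, then Gmnn, and Mcm10 and Cdc6 were under 1 FPKM. At 1 h Cdt1 ranked highest in both genotypes. Mcm6 lay between Mcm4 and Mcm3 in KO cells and between Cdt1 and Mcm4 in WT cells, overlapping both neighbours each time.

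In the other lists of the replication pathway no genotype difference passed the threshold. Of all genes tested, 0.228% were called at 6 h and 0.524% at 1 h, so counts of 0 in these lists lie near those shares. In KO against WT cells, 0 genes were called by limma or by voom at either time among 7 of the origin recognition complex, 15 helicase partners and origin firing factors, 13 regulators of licensing, 31 replicative polymerases and fork proteins, 7 genes of nucleotide supply and 17 of the E2F and RB family. At an unadjusted p under 0.05 there were at most 3 in any of these lists. Orc1, the origin recognition ATPase, had log2 fold changes of -0.27 at 6 h and -0.31 at 1 h (limma adjusted p of 0.614 and 0.321). Skp2, which directs the degradation of Cdt1, had -0.37 at 1 h (limma adjusted p = 0.144). The median at 1 h was -0.26 for the regulators and -0.29 for nucleotide supply, where 7 of 7 were below 0, beside -0.08 for the origin recognition complex and -0.03 for the helicase partners. Also below 0 at 1 h were 12 of the 13 regulators, 26 of the 31 polymerase and fork genes and 12 of the 17 E2F and RB genes. The same held for 11 of the 15 helicase partners and 4 of the 7 origin recognition genes, beside 54.6% of all genes.

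Over time these lists moved in both directions. Their counts stand beside 50.6% of all genes called higher and 27.9% lower in KO cells, and 49.5% higher and 29.2% lower in WT cells, and several of the lists lie near these shares. Of the 7 origin recognition genes, 5 rose and 2 fell at 6 h in each genotype, and the counts were the same after rescaling. Orc2 averaged 27.3 ± 1.14 FPKM at 6 h and 9.33 ± 0.487 FPKM at 1 h in KO cells (SD, n = 3 each), with log2 fold changes of 1.45 in KO cells and 1.41 in WT cells, and Orc5 gave 1.06 and 0.86. The members that fell were Orc1 and Orc6, named here after their values were seen. Orc1 averaged 0.738 FPKM at 6 h and 2.72 FPKM at 1 h in KO cells, and 1.11 FPKM at 6 h and 3.63 FPKM at 1 h in WT cells, with log2 fold changes of -1.1 and -1.13. Orc6 gave -0.51 in KO cells and -0.57 in WT cells. Orc1 and Orc6 thus went the same way as Cdc6 and Cdt1, and Orc2 and Orc5 the opposite way.

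Of the 15 helicase partners, 9 rose and 4 fell in KO cells, and 8 rose and 4 fell in WT cells. After rescaling 5 rose and 4 fell in KO cells, and 3 rose and 4 fell in WT cells. Gins4, a part of the active helicase, gave 1.03 in KO cells and 1.05 in WT cells, and Donson, a factor of helicase assembly, gave -0.88 and -0.97. Among the 13 regulators, 6 rose and 1 fell in KO cells, and 5 rose and 3 fell in WT cells. After rescaling these became 4 and 4 in KO cells and 5 and 5 in WT cells. Dtl, the ubiquitin ligase subunit that recognises Cdt1 during S phase, fell by 1.43 in KO cells and by 1.58 in WT cells, and Skp2 rose by 1.29 and 0.87.

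Of the 31 polymerase and fork genes, 20 rose and 8 fell in KO cells, and 18 rose and 8 fell in WT cells, with Pold2, a subunit of DNA polymerase delta, at 2.02 and 2.05. After rescaling 12 rose and 11 fell in KO cells and 12 rose and 12 fell in WT cells. Of the 7 nucleotide supply genes, 1 rose and 3 fell in KO cells and 1 rose and 5 fell in WT cells. The gene that rose was Dctpp1, a nucleotide pyrophosphatase, at 2.92 and 2.96. Of the 17 tested E2F and RB family genes, 6 rose in each genotype, led by E2f6, a repressor of the family, at 2.54 and 2.41, and 5 fell in KO cells and 6 in WT cells, among them Lin54 at -1.23 and -1.13. After rescaling 8 fell in KO cells and 9 in WT cells. No gene of the 15 of G2 and mitosis rose, and 9 fell in KO cells and 12 in WT cells, with Top2a, the topoisomerase of mitotic chromosomes, at -1.01 and -1.13. After rescaling 12 fell in KO cells and 14 in WT cells.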

How the data were processed

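Poly-A RNA of 12 mouse B cell libraries was sequenced, and the authors deposited FPKM values, a column for each library. Per the submitters' processing notes, reads were handled with STAR and HTSeq on build mm10. The annotation, gene lengths and strand setting are not given in the sources used here. The cDNA method marks strand, per the labels' protocols. All 12 columns were used and 0 left out, and symbols and positions came from GENCODE vM21 for 55141 of 55487 genes. Multiplied by an annotated transcript length, the FPKM of 99.01% of tested genes were whole fragments (tolerance 0.001), or 99.98% with lengths solved from the values, which gave the library totals. The floor that 3 fragments set for a transcript of 2 kb was 0.0623 to 0.0779 FPKM and covers counting error only.

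The 11841 genes whose mean reached 1 FPKM were fitted as log2(FPKM + 1) with a mean for each of the 4 groups in limma 3.58.1 (R 4.3.3), using a variance trend, and p-values were adjusted by Benjamini-Hochberg over all of them, separately in each of 5 comparisons. The threshold was an adjusted p of 0.05. The ratio of Mcm6 to the other subunits was compared with a two-sided exact permutation test (scipy 1.17.1). The procedure was tried on simulated counts with the same dispersion for all genes and no correlation between libraries. That setting differs from these libraries, so the trial does not measure error rates here. Alternatives were other pseudocounts and filters, rescaling, fits of fewer groups, no variance trend, replicate blocks, libraries left out, and voom on recovered fragments. Libraries of the same genotype and number deviated together across times (correlations of 0.338 to 0.547, against -0.368 to 0.017 for other numbers), so numbers were taken to pair times within a genotype. The block for these pairs changed no call of the 10 genes.

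The 10 genes and the lists were chosen with earlier results of these data known. All 10 genes are named, with up to 4 genes of each list by smallest p in a comparison, Fcmr, tested genes within 1 Mb of Mcm6, and the 5 genes most like a pattern. Predicted genes without a proper symbol, pseudogenes and immunoglobulin or T cell receptor segments were exempt from the naming by pattern. Genes named in the plot of the region around Fcmr are those called there.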

Additional observations from a re-analysis of the deposited data

How the results depend on the processing

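Among 1130 values of single licensing genes under alternative settings, 1084 kept their direction and their side of the threshold, 25 lost and 2 gained a call, and 19 changed sign, of which 2 involved a call. The lower Mcm6 in KO cells at 6 h was called in all 23 alternatives. The difference of KO from WT in its log2 ratio to the other subunits ran from -0.96 to -0.85 at that time. At 1 h the count of 1 licensing gene called, Mcm6, went to 0 when only the groups compared were fitted, and leaving out a library gave 0 to 1. At 1 h the difference of KO from WT in this log2 ratio was -0.26 with Mcm7 alone as the denominator. With rescaling 5 licensing genes were called over time in KO cells, 4 of the 8 called as deposited and Mcm3, and the sign changed for Mcm3 (-0.18) and Gmnn (-0.15) in KO cells and for Mcm2 (-0.06) and Mcm7 (-0.06) in WT cells. The cause was not tested.

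The replicate block by number across genotypes gave 0 licensing genes called at 1 h, where Mcm6 had a limma adjusted p of 0.0638; same-numbered KO and WT libraries correlated at -0.15 to 0.248, and others at -0.302 to 0.346, so that block pairs libraries by number alone. The replicate block by genotype and number gave 1 gene called in the genotype difference of the change over time among all genes, against 3 without it.

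Leaving out a library turned signs near 0 in KO against WT at 6 h: Gmnn ran from -0.13 to 0.05, Mcm3 from -0.02 to 0.03, Cdt1 from -0.07 to 0.08, Mcm5 from -0.09 to 0.02 and Mcm4 from -0.00 to 0.05. Gmnn over time in KO cells ran from -0.06 to 0.22 and the genotype difference of the change of Cdc6 from -0.05 to 0.4. Without both WT libraries numbered 3, Mcm3 and Mcm4 at 6 h gave -0.02 and -0.00 and the genotype difference of the change of Cdt1 gave -0.00. The calls over time of Mcm2 and Mcm5 in WT cells were lost without WT replicate 3 at 1 h (limma adjusted p of 0.125 and 0.0712) and without WT replicate 2 at 6 h (0.0885 and 0.0619), and that of Mcm2 also without WT replicate 2 at 1 h (0.062) or WT replicate 1 at 6 h (0.0713), with no filter (0.0564), with only the groups compared (0.0727) and without both WT libraries numbered 3 (0.0815). Mcm7 in WT cells was called over time without WT replicate 1 at 1 h (limma adjusted p = 0.0141).

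The number of all genes called at 1 h was 62, and 21 with only the groups compared, 32 with a filter of 5 FPKM, 115 with no filter, 106 with voom, 191 without both WT libraries numbered 3, and 30 to 142 with a library left out. At 6 h it was 27, and 10 with only the groups compared, 64 without both WT libraries numbered 3, and 12 to 30 with a library left out. For the genotype difference of the change over time it was 3, and 0 with a pseudocount of 0.1, with the filter of 5 FPKM or with voom, 21 with no filter, 1 without both WT libraries numbered 3 and 1 to 3 with a library left out. Mcm10 and Cdc6 did not pass the filter of 5 FPKM. Depth limits the low levels of Mcm10 and Cdc6, which rested on 44 to 392 fragments.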
